A study of Mus musculus with 7 samples.

Results

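The genes that build sterols and new fatty acids, with the regulators that set their level, were followed in the hearts of fasted mice without Krüppel-like factor 15 (KLF15), a zinc-finger transcription factor of heart, muscle and liver. The group was a list of 35 genes chosen by function: 18 enzymes of sterol synthesis, 5 genes of sterol sensing and SREBP, 3 of the LXR receptors and cholesterol efflux, and 9 enzymes that make, desaturate or lengthen fatty acids. A probe set, the group of short probes that reads out a transcript on the array, was taken where the platform annotation gave it exactly 1 gene symbol. In this way 32 of the 35 genes had 61 of the 22626 probe sets, and Acat2, Insig1 and Nr1h2 were not analysed here. A probe set was tested where its mean over the 7 arrays reached log2 5.74, the 40th percentile of the array, which kept 36 probe sets of 24 genes among 13576 probe sets of 8404 genes. The other 8 genes lay below that level on all their probe sets.

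Cells make cholesterol from acetyl-CoA through mevalonate, squalene and lanosterol, and make fatty acids from malonyl-CoA. Both routes are governed by the SREBP transcription factors, which are held in the endoplasmic reticulum by INSIG proteins when sterols are plentiful and are escorted by SCAP to the Golgi for cleavage when they are not. The LXR receptors sense oxidised sterols and raise efflux genes and Srebf1. The heart takes up most of its lipid from the blood and has modest synthesis of its own.

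Whole hearts came from 3 KLF15-null mice and 4 wild-type (WT) mice, all labelled as male, of strain C57/BL6, 3 to 4 months old and fasted for 18 h. Fed hearts were not analysed here. The KLF15-null allele was present in the whole animal, and the sources used here do not say which stretch of the gene it removes. The arrays were Affymetrix 3' expression arrays, with log2 signals between 3.20 and 14.28. The number of arrays limits the precision, and nothing in the labels says how the hearts were batched, so the p-values measure the spread between these 7 samples.

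Klf15 had log2 signals of 6.52, 6.23 and 6.23 on the KLF15-null arrays, against 8.68, 8.98, 8.73 and 9.08 on the WT arrays, a difference of -2.54 (SE 0.13, limma adjusted p = 1.26e-06; exact two-sided permutation p = 0.0286, the smallest that 35 splits of 7 arrays allow). The Klf15 signal thus separated the labelled genotypes without overlap, though whether its probe set lies in the deleted part is not known from the sources used. All hearts were labelled male, yet the brightest probe set of Xist, a transcript of female cells, stood at the 91.4th percentile of the 7-array mean, and the 7 probe sets of Y-linked genes without the _x_at suffix stood at or below the 27.3rd. These means over 7 arrays do not show whether the 2 genotypes differed in sex, and no sample was left out for the mismatch. Array medians lay between 6.22 and 6.33. The 98th percentile lay between 11.86 and 12.02 on KLF15-null arrays and between 11.43 and 11.74 on WT arrays, and among the brightest 10% of probe sets the median of the differences was 0.30 (every difference here is KLF15-null minus WT). All 7 cardiomyocyte markers, Myh6, Tnnt2 and Tnni3 among them, were above the filter level. On the deposited scale 0 of them passed the threshold, but this count depended on the scaling: 6 were lower after cyclic loess normalization, 2 were lower after quantile normalization, and 3 were higher after median centring, with Myh6 and Tnni3 called lower in the first and higher in the last.

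In KLF15-null hearts the list did not move as a block. Of the 24 genes tested, each on its kept probe set with the highest WT mean, 6 were higher (25%), 8 were lower (33.3%) and 10 did not pass the threshold of an adjusted p of 0.05 in a limma fit over all kept probe sets. Over all 8404 genes tested the same rule called 25.3% higher and 21.2% lower. The median difference was -0.13 for the members and 0.01 for all genes. Counted as probe sets, 8 of 36 were higher and 11 lower, against 26.8% and 23.8% of all kept probe sets. The 2 genotypes did not overlap for 14 of the 24 genes (58.3%), against 49.4% of all genes. These shares are near those of the whole array, and the differences lay in which members moved. Srebf1 was higher. Of the 6 enzymes tested that act after lanosterol 4 were lower and 0 higher. Hmgcs1, Fdft1, Elovl1 and Elovl5 were higher on the probe set that stands for them, and each of these had another probe set that differed less or moved the other way. The calls of Srebf1, Fdps, Tm7sf2 and Ebp were the 4 that held under each of the 20 other settings in which the gene was tested. Each of these 4 has a single kept probe set, so settings that choose or average among kept probe sets could not change its difference. For Hmgcs1, Fdft1, Elovl1 and Elovl5 such settings could, so the 2 sets of genes were not tested alike.

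**Figure D1:**
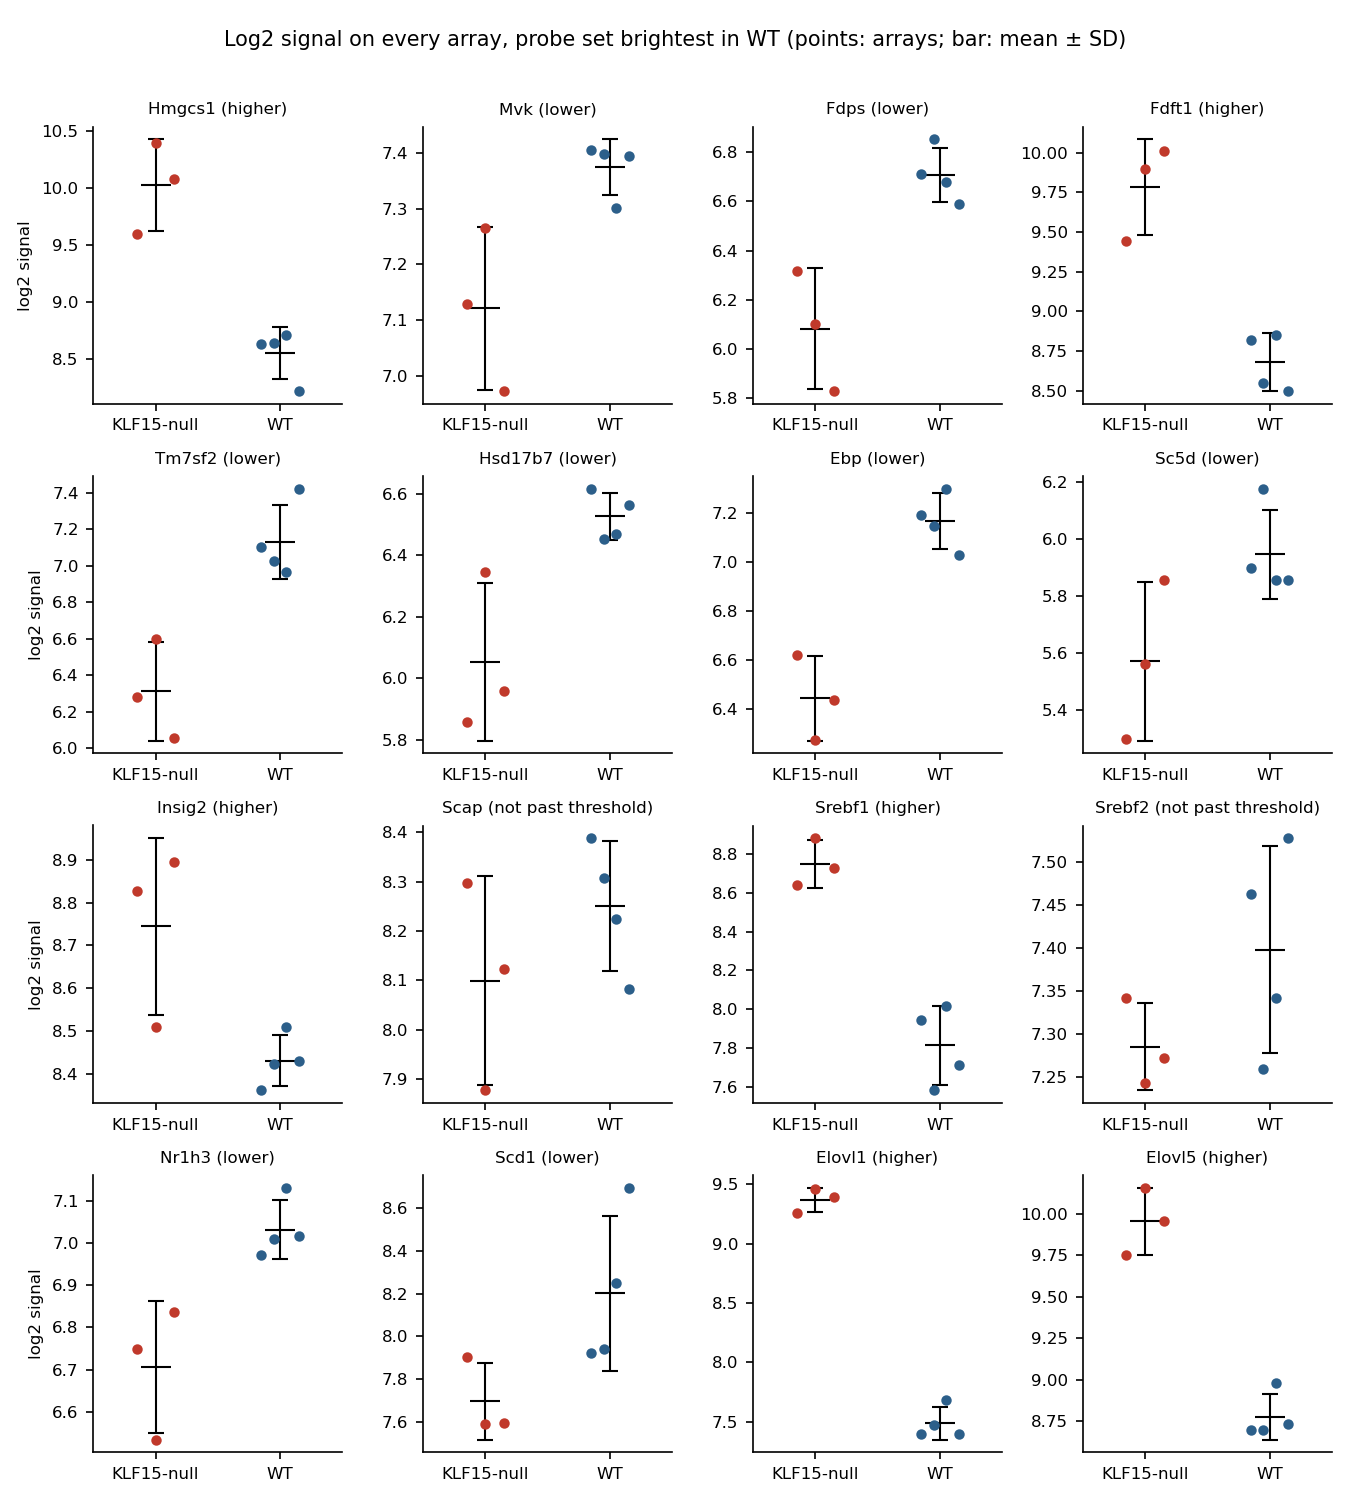
Log2 signal (vertical axes, each panel with its own range) of the 14 members past the threshold and of Scap and Srebf2, with 3 KLF15-null arrays on the left and 4 WT arrays on the right of each panel; points are arrays and bars the mean ± SD. Each gene is shown on its kept probe set with the highest WT mean only. Srebf1, Elovl1 and Elovl5 of the KLF15-null arrays lay well above WT there, while Sc5d and Insig2 touched the WT range. Another kept probe set of Elovl1 and of Elovl5, not shown in this figure, was lower.

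Cytosolic HMG-CoA synthase, the product of Hmgcs1, makes the substrate of the rate-limiting reductase and is a classical SREBP target. On the probe set that stands for it, which covers alternative transcripts of the gene (suffix _a_at), Hmgcs1 had log2 signals of 9.59, 10.39 and 10.08 in KLF15-null hearts, against 8.63, 8.64, 8.71 and 8.21 in WT hearts. All KLF15-null arrays lay above all WT arrays, and the difference was 1.47 (SE 0.19, adjusted p = 0.000198, 2.77-fold). The other kept probe sets of the gene did not follow. An _x_at probe set, a class whose probes can also bind unrelated transcripts, differed by 0.17 (adjusted p = 0.206) and an _at one by 0.06 (adjusted p = 0.681). A further _at probe set had 6.35, 5.92 and 6.04 in KLF15-null hearts, against 6.85, 7.001, 7.11 and 6.78 in WT hearts, a fall by 0.83 on the log2 scale (adjusted p = 0.000368). The direction for Hmgcs1 therefore depended on the probe set, and the mean of the 4 probe sets differed by 0.22 (adjusted p = 0.0754).

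The promoter of Hmgcs1 is shown because the gene had the smallest p of the sterol enzymes that were higher. It runs from 250 bases before to 49 after the first base of the transcript, from RefSeq on GRCm38.p6. Capitals mark matches on either strand to TCACNCCAC (an SREBP element), CCAAT (NF-Y), CACCC (Krüppel-like factors) and GGGCGG (Sp1), so a match on the opposite strand reads as the reverse complement, such as ATTGG.
Hmgcs1, chr13:119690101-119690400, plus strand: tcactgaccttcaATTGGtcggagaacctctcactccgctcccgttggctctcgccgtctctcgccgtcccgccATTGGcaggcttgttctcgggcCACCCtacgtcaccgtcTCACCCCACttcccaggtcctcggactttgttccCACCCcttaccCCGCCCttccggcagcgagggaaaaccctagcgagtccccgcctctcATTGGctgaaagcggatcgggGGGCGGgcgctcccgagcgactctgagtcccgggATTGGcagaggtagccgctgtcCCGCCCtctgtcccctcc
It held 1 match to TCACNCCAC, whose first base lies at -137 relative to the start and which overlaps a CACCC match, with 4 matches to CCAAT, 3 to CACCC and 3 to GGGCGG. The SREBP letters were in 1.24% of the 32851 promoter windows of the table and in 1 of the 39 windows of the 29 members listed there, that of Hmgcs1. CCAAT was in 56.4% of the members' windows and 37.4% of all, CACCC in 66.7% and 57.5%, and GGGCGG in 69.2% and 35.7%. These are matches of letters, and binding was not measured.

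The next steps of the mevalonate branch did not rise on the probe sets tested. Fdps, which makes farnesyl diphosphate, had log2 signals of 6.32, 6.10 and 5.83 in KLF15-null hearts, against 6.71, 6.85, 6.68 and 6.59 in WT hearts. The groups did not overlap, and Fdps fell by 0.63 on the log2 scale (SE 0.12, adjusted p = 0.00182, 1.54-fold lower). A second probe set of Fdps, below the filter level, averaged 4.81 ± 0.36 (SD, n = 3) in KLF15-null and 4.40 ± 0.24 (SD, n = 4) in WT hearts. Mvk, mevalonate kinase, had 7.13, 7.26 and 6.97 in KLF15-null hearts, against 7.41, 7.40, 7.30 and 7.39 in WT hearts, a difference of -0.25 (SE 0.09, adjusted p = 0.0475). The call of Mvk was lost in 13 of the 20 other settings, among them the removal of any 1 array except KLF15-null 2, with an adjusted p between 0.0123 and 0.155 over the 7 removals. Its second probe set differed by -0.02 (adjusted p = 0.860). Mvd, the mevalonate diphosphate decarboxylase gene, differed by -0.16 (95% interval -0.33 to 0.02, adjusted p = 0.119).

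Pmvk and Idi1 of the same branch lay below the filter level and were not part of the main comparison. Idi1, the isopentenyl diphosphate isomerase gene, had 5.84, 6.004 and 6.02 in KLF15-null hearts, against 5.33, 5.38, 5.30 and 5.38 in WT hearts on its brighter probe set. On its dimmer one it had 4.73, 5.25 and 5.13 in KLF15-null hearts, against 3.84, 3.99, 3.72 and 3.85 in WT hearts. All KLF15-null arrays lay above all WT arrays on both, with differences of 0.61 and 1.19 (adjusted p = 0.000187 and 5.09e-05 in a fit with no filter). The table holds no detection calls, so a difference at such levels may be a lower limit that background sets. Pmvk, phosphomevalonate kinase, differed by 0.28 with overlapping groups (adjusted p = 0.0960 with no filter).

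**Figure D2:**
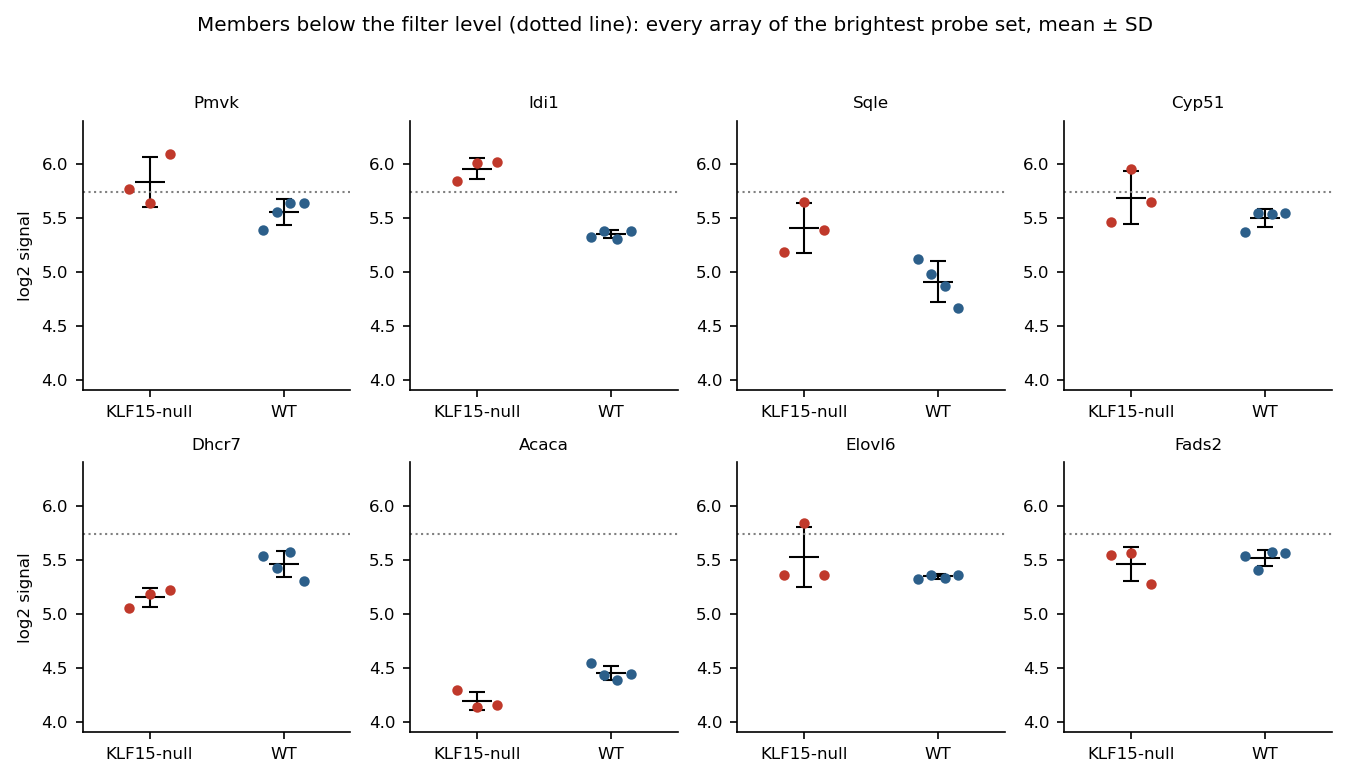
Log2 signal of the 8 members below the filter level on their brightest probe set, 3 KLF15-null arrays left and 4 WT arrays right; points are arrays, bars the mean ± SD and the dotted line the filter level of log2 5.74. Idi1 and Sqle lay higher in KLF15-null hearts and Dhcr7 and Acaca lower, without overlap, and the other 4 overlapped.

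Squalene synthase, made from Fdft1, takes the first step committed to sterols, and its probe sets did not move together. The probe set that stands for Fdft1 is of the _x_at class and had 9.44, 9.90 and 10.01 in KLF15-null hearts, against 8.82, 8.55, 8.85 and 8.50 in WT hearts. The groups did not overlap and the difference was 1.10 (SE 0.16, adjusted p = 0.000343, 2.15-fold). An _at probe set had 8.43, 7.73 and 8.48 in KLF15-null hearts, against 8.64, 8.54, 8.71 and 8.57 in WT hearts, lower in KLF15-null hearts on every array but not past the threshold (difference -0.40, adjusted p = 0.0819). That second probe set did pass as lower after quantile (adjusted p = 0.0247) and cyclic loess normalization (adjusted p = 0.0225). The third differed by 0.06 (adjusted p = 0.631). Sqle, squalene epoxidase, a rate-limiting enzyme of the pathway, lay below the filter level, with 5.18, 5.64 and 5.39 in KLF15-null hearts, against 5.11, 4.98, 4.87 and 4.66 in WT hearts. Every KLF15-null array of Sqle lay above every WT array, with a difference of 0.50 (adjusted p = 0.0135 with no filter). Lss, lanosterol synthase, differed by -0.20 (95% interval -0.39 to -0.01, adjusted p = 0.0758).

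Of the 6 enzymes tested that turn lanosterol into cholesterol, 4 fell, 0 rose and 2 missed the threshold, and their median difference was -0.42. Over all genes 21.2% were lower. Tm7sf2, a sterol C14-reductase, had 6.28, 6.60 and 6.06 in KLF15-null hearts, against 7.10, 7.03, 6.96 and 7.42 in WT hearts. Its groups did not overlap, and it fell by 0.82 on the log2 scale (SE 0.15, adjusted p = 0.00129, 1.76-fold lower). Ebp, the sterol isomerase that moves the double bond of the ring, had 6.62, 6.28 and 6.44 in KLF15-null hearts, against 7.19, 7.15, 7.30 and 7.03 in WT hearts. All KLF15-null arrays of Ebp lay below all WT arrays, and it fell by 0.72 (SE 0.11, adjusted p = 0.000360, 1.65-fold lower). Tm7sf2 and Ebp have 1 probe set each, both of the _at class.

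Hsd17b7, the 3-ketosteroid reductase of C4-demethylation, had 5.86, 6.34 and 5.96 in KLF15-null hearts, against 6.62, 6.45, 6.47 and 6.56 in WT hearts. The groups did not overlap and it fell by 0.47 (SE 0.12, adjusted p = 0.00797), while its second probe set differed by -0.02 (adjusted p = 0.862). The call was lost with the mean of both probe sets (difference -0.25, adjusted p = 0.0716). Sc5d, the C5-desaturase, had 5.30, 5.56 and 5.86 in KLF15-null hearts, against 5.90, 6.18, 5.86 and 5.86 in WT hearts. KLF15-null array 3 touched the WT range, the mean over KLF15-null hearts, 5.57, was under the filter level, and the difference of -0.37 (SE 0.14, adjusted p = 0.0425) was not called in 13 of the 19 other settings that test it. Among those 13 were the removal of any 1 array except KLF15-null 3, with an adjusted p between 0.0114 and 0.152 over the 7 removals. Nsdhl, a C4-decarboxylating dehydrogenase, differed by -0.14 (95% interval -0.33 to 0.05, adjusted p = 0.200) and Msmo1, the C4-methyl oxidase, by 0.04 (95% interval -0.15 to 0.22, adjusted p = 0.747).

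Below the filter level, Dhcr7, which makes cholesterol from its last precursor in one branch of the pathway, had 5.05, 5.19 and 5.22 in KLF15-null hearts, against 5.53, 5.43, 5.57 and 5.31 in WT hearts. The groups did not overlap (difference -0.31, adjusted p = 0.0185 with no filter). Cyp51, lanosterol 14α-demethylase, averaged 5.69 ± 0.25 (SD, n = 3) in KLF15-null and 5.50 ± 0.09 (SD, n = 4) in WT hearts with overlapping groups (adjusted p = 0.236 with no filter). Of the 12 sterol enzymes tested together 2 were higher (16.7%) and 6 lower (50%), against 25.3% and 21.2% of all genes. Under quantile, cyclic loess and median scaling alike 4 were lower, since the calls of Mvk and Sc5d were lost in each (adjusted p between 0.0669 and 0.174).

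The promoters of Tm7sf2 and Ebp are shown as those of the lower sterol enzymes with the smallest p, with the same motifs in capitals as for Hmgcs1.
Tm7sf2, chr19:6067801-6068100, minus strand: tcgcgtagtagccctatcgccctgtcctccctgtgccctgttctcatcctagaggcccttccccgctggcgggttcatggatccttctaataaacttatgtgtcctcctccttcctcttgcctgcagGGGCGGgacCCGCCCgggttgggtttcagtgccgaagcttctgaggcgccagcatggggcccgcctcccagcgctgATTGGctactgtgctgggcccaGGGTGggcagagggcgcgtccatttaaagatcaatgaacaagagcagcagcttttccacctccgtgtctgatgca
Ebp, chrX:8193463-8193762, minus strand: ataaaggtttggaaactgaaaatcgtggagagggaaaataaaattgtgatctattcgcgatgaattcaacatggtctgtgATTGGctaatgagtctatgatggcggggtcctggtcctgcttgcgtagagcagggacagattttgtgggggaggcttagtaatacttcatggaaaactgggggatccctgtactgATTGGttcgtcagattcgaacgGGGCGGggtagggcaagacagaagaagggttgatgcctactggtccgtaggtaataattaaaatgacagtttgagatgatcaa
Neither held the SREBP letters. The Tm7sf2 window had 1 match to CCAAT, 1 to CACCC and 2 to GGGCGG. That of Ebp had 2 matches to CCAAT, 0 to CACCC and 1 to GGGCGG. The same rule named Fdft1 and Fdps.

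**Figure D3:**
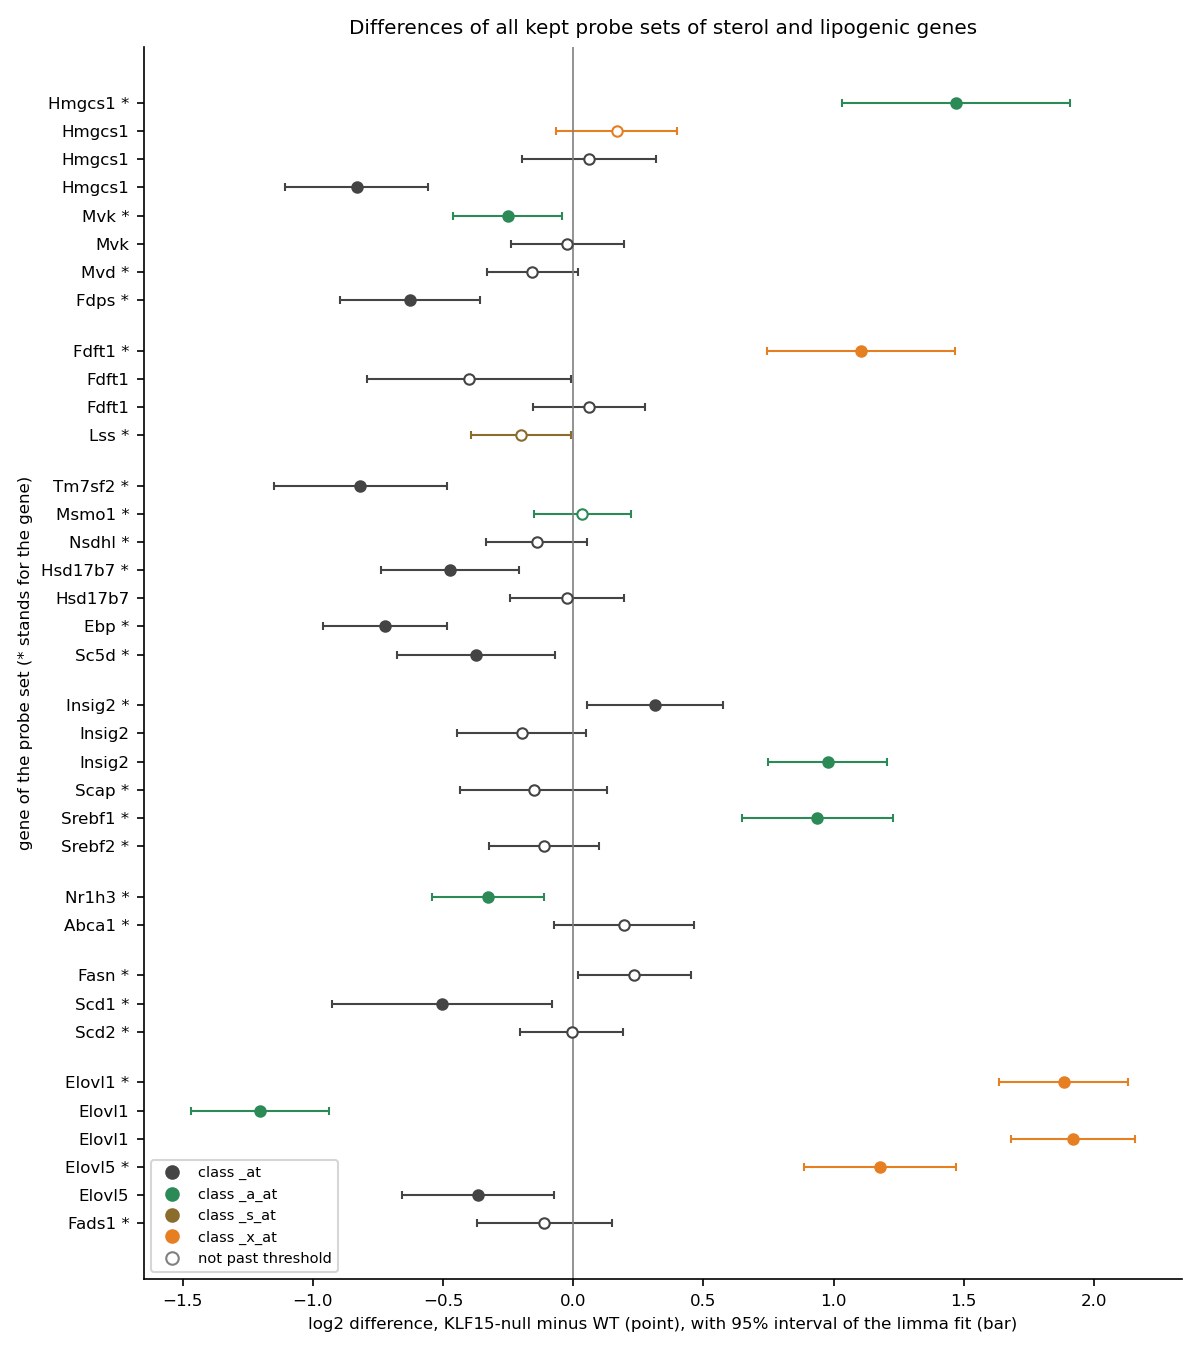
Log2 difference, KLF15-null minus WT, of each of the 36 kept probe sets (points, filled where past the threshold) with the 95% interval of the limma fit (bars), ordered by role from the mevalonate enzymes at the top to the elongases and Fads1 at the bottom and coloured by class of probe set. The 4 filled _x_at points all lie right of 0, and 8 of the 9 filled _at points lie left of it.

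Among the sterol sensors, Srebf1, which encodes SREBP-1, had the call that depended least on processing. It had 8.64, 8.88 and 8.73 in KLF15-null hearts, against 7.95, 7.58, 8.02 and 7.71 in WT hearts. No KLF15-null array overlapped the WT range, and Srebf1 rose by 0.94 (SE 0.13, adjusted p = 0.000254, 1.91-fold). Its single probe set covers alternative transcripts, so the SREBP-1a and SREBP-1c forms were not told apart. Settings that choose among probe sets could not change the difference of Srebf1. Srebf2, which encodes SREBP-2, had 7.34, 7.24 and 7.27 in KLF15-null hearts, against 7.46, 7.26, 7.34 and 7.53 in WT hearts. The groups overlapped, with a difference of -0.11 (95% interval -0.32 to 0.10, adjusted p = 0.346). Scap had 8.30, 7.88 and 8.12 in KLF15-null hearts, against 8.39, 8.31, 8.22 and 8.08 in WT hearts, with a difference of -0.15 (95% interval -0.43 to 0.13, adjusted p = 0.343).

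Insig2 encodes a retention protein of the SREBP complex that in liver is known to rise with fasting. On the probe set that stands for it, Insig2 had 8.83, 8.51 and 8.90 in KLF15-null hearts, against 8.36, 8.42, 8.51 and 8.43 in WT hearts, and KLF15-null array 2 touched the WT range. The difference of 0.31 (SE 0.12, adjusted p = 0.0479) was not called in 8 of the 20 other settings. Among these were the removal of any 1 array except KLF15-null 2, with an adjusted p between 0.00351 and 0.163 over the 7 removals. An _a_at probe set of the gene had 7.98, 8.17 and 8.23 in KLF15-null hearts, against 7.03, 7.17, 7.29 and 7.11 in WT hearts. There the groups were far apart, with a rise by 0.98 (SE 0.10, adjusted p = 4.79e-05, 1.97-fold). The remaining probe set differed by -0.20 (adjusted p = 0.162).

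The promoter of Srebf1 is shown because it had the second-smallest p among the sterol enzymes and sensors that were higher. RefSeq lists 3 starts, and the window of the one furthest downstream is printed, with the same motifs in capitals.
Srebf1, chr11:60210422-60210721, minus strand: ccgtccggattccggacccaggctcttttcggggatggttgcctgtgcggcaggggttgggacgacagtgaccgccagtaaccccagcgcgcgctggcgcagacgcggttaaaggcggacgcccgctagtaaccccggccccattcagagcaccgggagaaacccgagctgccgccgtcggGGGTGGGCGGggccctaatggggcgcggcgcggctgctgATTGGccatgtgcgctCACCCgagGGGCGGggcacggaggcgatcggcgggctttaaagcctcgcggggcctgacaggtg
It had 1 match to CCAAT, 2 to CACCC, one of them overlapping one of the 2 matches to GGGCGG, and 0 to the SREBP letters. The windows of the other starts had 0 and 1 matches to CCAAT, 2 and 2 to CACCC, 3 and 0 to GGGCGG, and 0 to the SREBP letters.

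Nr1h3, which encodes LXRα, had 6.75, 6.53 and 6.84 in KLF15-null hearts, against 6.97, 7.01, 7.13 and 7.02 in WT hearts. The groups did not overlap and Nr1h3 fell by 0.33 (SE 0.10, adjusted p = 0.0176, 1.25-fold lower), a call that was lost when each array was centred on its median (adjusted p = 0.0718). Abca1, the cholesterol efflux transporter and an LXR target, had 9.23, 9.53 and 9.43 in KLF15-null hearts, against 9.27, 9.003, 9.27 and 9.27 in WT hearts. The groups overlapped, and the difference was 0.19 (95% interval -0.08 to 0.46, adjusted p = 0.206). A dim probe set of Abca1 had 4.35, 4.66 and 4.27 in KLF15-null hearts, against 4.83, 4.85, 5.03 and 5.17 in WT hearts, lower without overlap (difference -0.54, adjusted p = 0.00423 with no filter).

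Fatty acid synthase, made from Fasn, did not pass the threshold on the deposited scale. Fasn had 7.14, 7.25 and 7.20 in KLF15-null hearts, against 6.97, 6.78, 6.96 and 7.12 in WT hearts. The KLF15-null arrays lay just above the WT arrays, with a difference of 0.23 (95% interval 0.02 to 0.45, adjusted p = 0.0692). It did pass after quantile (adjusted p = 0.0352), cyclic loess (adjusted p = 0.0323) and median scaling (adjusted p = 0.0166), with array weights (adjusted p = 0.0198) and without WT array 4 (adjusted p = 0.0382). Scd1, the stearoyl-CoA desaturase of lipogenic tissues, had 7.91, 7.59 and 7.60 in KLF15-null hearts, against 7.92, 7.94, 8.25 and 8.70 in WT hearts. WT arrays 1 and 2 lay close to KLF15-null array 1, and WT array 4 was the highest. Scd1 differed by -0.50 (SE 0.19, adjusted p = 0.0476). The call was lost in 8 of the 20 other settings, among them the removal of WT array 3 or 4 or of KLF15-null array 2 or 3, with an adjusted p between 0.0368 and 0.144 over the 7 removals. Scd2, the desaturase form of brain, differed by -0.01 (95% interval -0.20 to 0.19, adjusted p = 0.955). Acaca, acetyl-CoA carboxylase 1, lay below the filter level, with 4.29, 4.13 and 4.16 in KLF15-null hearts, against 4.55, 4.43, 4.39 and 4.44 in WT hearts (difference -0.26, adjusted p = 0.00909 with no filter).

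The elongases lengthen fatty acids, Elovl1 saturated very long chains and Elovl5 polyunsaturated ones, and both had probe sets past the threshold in opposite directions. On the _x_at probe set that stands for it, Elovl1 had 9.26, 9.46 and 9.40 in KLF15-null hearts, against 7.39, 7.47, 7.69 and 7.39 in WT hearts. That is a difference of 1.88 (SE 0.11, adjusted p = 2.21e-06, 3.69-fold), the largest among the 24 genes on the probe sets that stand for them. A second _x_at probe set differed by 1.92 (adjusted p = 1.74e-06). The third, of the _a_at class, had 6.32, 6.09 and 5.90 in KLF15-null hearts, against 7.31, 7.42, 7.12 and 7.37 in WT hearts, and fell by 1.20 on the log2 scale (SE 0.12, adjusted p = 3.41e-05, 2.30-fold lower). Neither direction had overlapping groups.

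Elovl5 had 9.76, 10.16 and 9.96 in KLF15-null hearts, against 8.70, 8.70, 8.98 and 8.73 in WT hearts on its _x_at probe set, a difference of 1.18 (SE 0.13, adjusted p = 6.76e-05, 2.26-fold). On its _at probe set it had 7.54, 7.35 and 7.38 in KLF15-null hearts, against 7.69, 7.67, 8.12 and 7.68 in WT hearts, a fall by 0.37 (SE 0.13, adjusted p = 0.0395). As for Elovl1, each probe set separated the genotypes without overlap, in opposite directions. Fads1, the Δ5-desaturase, differed by -0.11 (95% interval -0.37 to 0.15, adjusted p = 0.452). Fads2, the Δ6-desaturase, and Elovl6, which lengthens palmitate, lay below the filter level, with overlapping groups and differences of -0.06 and 0.18 on their brightest probe sets.

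**Figure D4:**
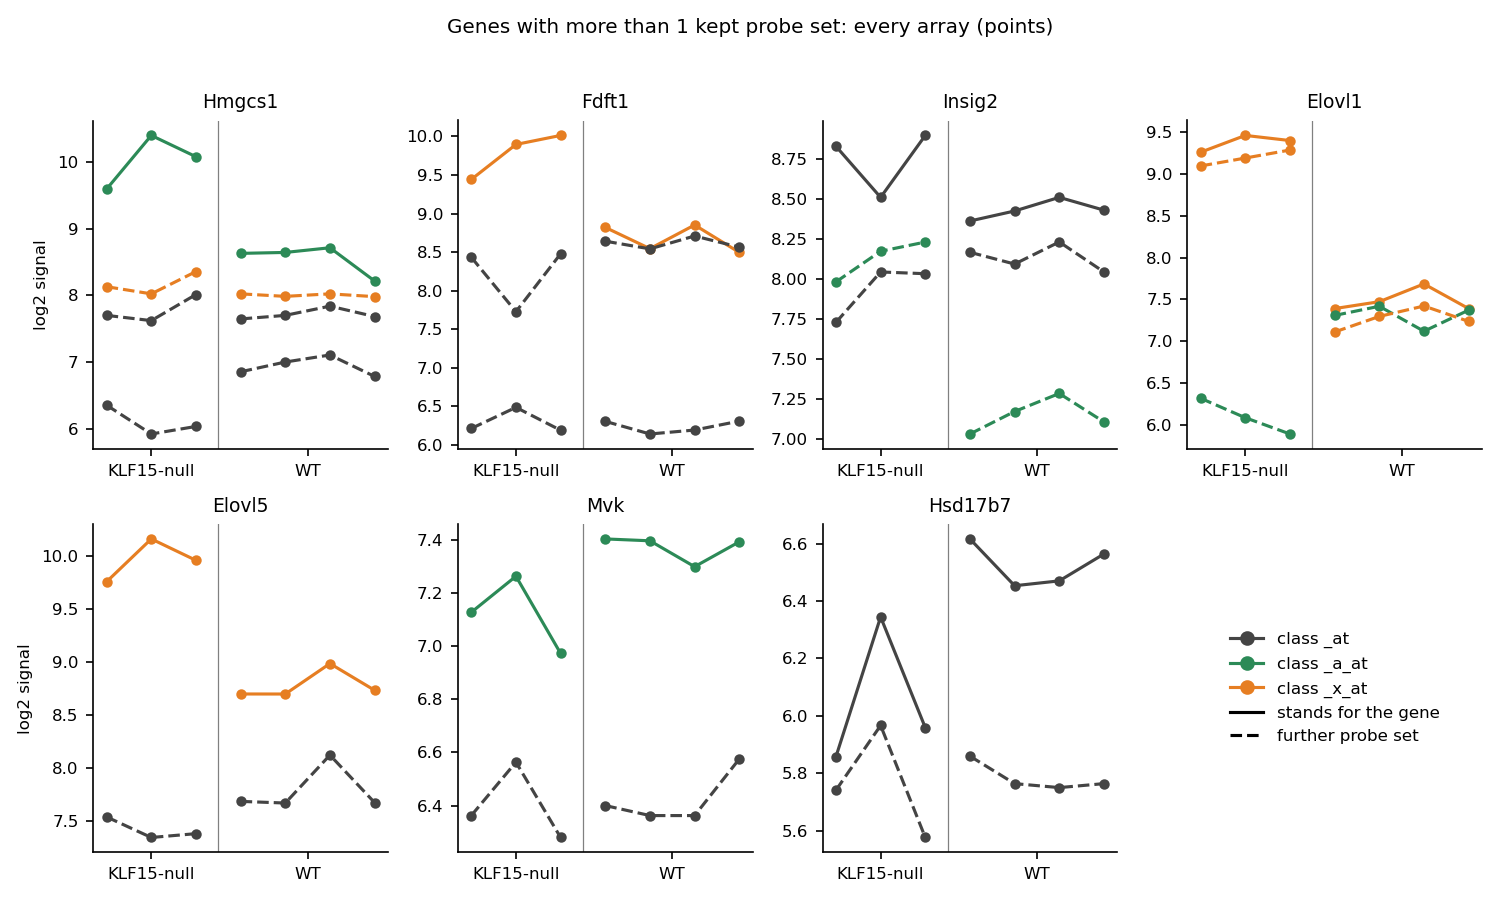
Log2 signal (vertical axes) of each kept probe set of the 7 members with more than 1, on the 3 KLF15-null arrays left of the grey line and the 4 WT arrays right of it; solid lines mark the probe set that stands for the gene, dashed lines the others, and colours the class. In Elovl1 and Elovl5 the _x_at lines are higher in KLF15-null hearts while the other probe set is lower.

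All 7 members with more than 1 kept probe set had probe sets with differing calls, and for 3 of them, Hmgcs1, Elovl1 and Elovl5, calls ran in both directions. How often this holds over all genes with more than 1 kept probe set was not counted, so it cannot be read as particular to the members. The class of the probe set moved with the direction. Of the members' 5 kept _x_at probe sets 4 were higher and 0 lower, and of the 23 _at probe sets 1 was higher and 8 lower. Over the whole array 60.5% of the 1074 kept _x_at probe sets were higher and 7.91% lower, with a median difference of 0.53, while 20.5% of the 8772 _at probe sets were higher and 25.0% lower. Among all 570 genes with a kept _x_at probe set and one of another class, the brightest in WT of each, the _x_at difference was the larger one in 78.4%. In 75 of these genes the _x_at probe set was called higher and the other lower, and in 4 the reverse. Which sequences those probes bind was not analysed here, so the part of cross-hybridization in the Fdft1, Elovl1 and Elovl5 values was not tested. Without _x_at probe sets, a setting chosen after seeing the data, 3 members were higher (Hmgcs1, Insig2 and Srebf1) and 10 lower, Elovl1 and Elovl5 then among the lower.

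**Figure D5:**
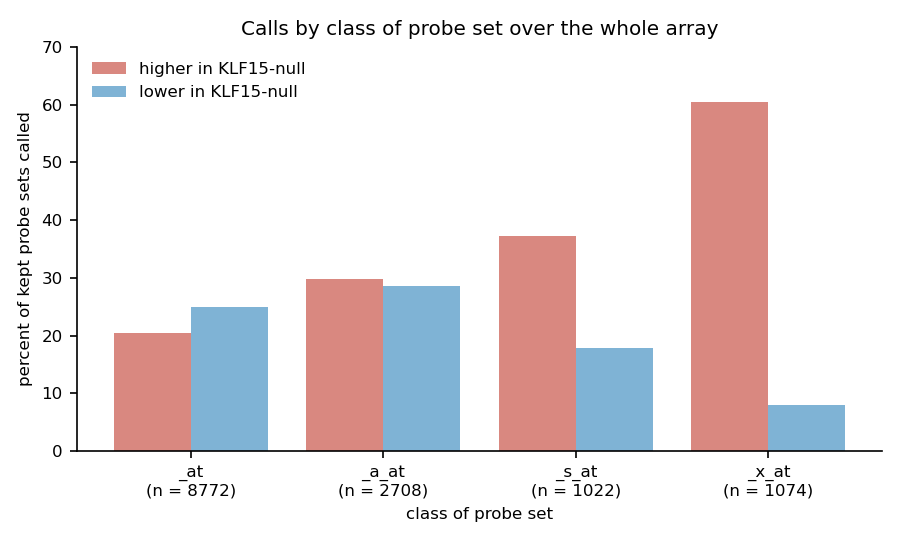
Percent of kept probe sets over the whole array that were called higher (left bar of each pair) or lower (right bar) in KLF15-null hearts, by class of probe set, with the number of kept probe sets under each class. The share called higher is 60.5% for _x_at and 20.5% for _at probe sets.

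Further genes of the same pathways, on a list apart from the 35, are to be read against the 25.3% higher and 21.2% lower of all genes. Of 7 further sterol genes tested 2 rose, 1 fell and 4 missed the threshold, each on its kept probe set brightest in WT. Cyb5r3, counted among the 4, differed by -1.98 and -0.98 on other kept probe sets, both past the threshold. Ggps1, geranylgeranyl diphosphate synthase, rose by 0.51 (SE 0.15, adjusted p = 0.0193), with its other 2 probe sets at -0.16 and -0.24 and not past the threshold. Stard4, a sterol carrier and SREBP target, rose by 0.28, and Cyb5a, the electron donor cytochrome b5, fell by 0.49. Nus1, a subunit of the dolichol-making cis-prenyltransferase, differed by 0.37 (adjusted p = 0.0602). Of 6 genes of SREBP processing and of endoplasmic reticulum degradation 2 rose, 1 fell and 3 missed the threshold. Erlin1, which binds INSIG and SREBP complexes in the endoplasmic reticulum membrane, rose by 0.63 (SE 0.10, adjusted p = 0.000472), and the ubiquitin ligase gene Syvn1 by 0.38. Fbxw7, which marks nuclear SREBP for degradation, fell by 0.37 on the brighter of its probe sets and differed by -0.18 on another, not past the threshold. Mbtps1, the site-1 protease that cleaves SREBP, differed by -0.19 (adjusted p = 0.248).

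Of 19 further lipogenic genes tested 3 rose, 3 fell and 13 missed the threshold (median difference 0.04), each on its kept probe set brightest in WT. Among those 13, Acly, Acss2, Gpam, Me1 and Thrsp had other kept probe sets past the threshold. Acly differed by 1.99 on an _x_at and by -1.22 on an _at probe set, and Acss2 by 1.34 on an _a_at one. On _a_at probe sets Gpam differed by -1.54, Me1 by -1.15 and Thrsp by -0.87. Mid1ip1, which activates acetyl-CoA carboxylase, rose by 1.70 (SE 0.19, adjusted p = 6.53e-05). Tecr, the reductase of the last elongation step, fell by 2.56 (SE 0.28, adjusted p = 7.08e-05), and by 0.93 on a second probe set. Pgd, an NADPH source, rose by 1.98 on an _x_at probe set and by 0.53 on an _a_at one. Hacd3, an elongation dehydratase, rose by 1.16, and a second probe set differed by 0.24 (adjusted p = 0.107). Of 15 LXR target and cholesterol handling genes 3 rose, 8 fell and 4 missed the threshold (median difference -0.31), counted in the same way. Other kept probe sets past the threshold did not follow some of these calls. Scarb1, counted as lower, differed by 0.37 and 0.53 on _x_at probe sets. Pltp, counted as higher, differed by -0.58 on an _at one. Npc2, counted as missed, differed by 1.38 on an _a_at one. Npc1, which exports cholesterol from lysosomes, fell by 2.15 (SE 0.25, adjusted p = 8.45e-05) to a KLF15-null mean of 4.97, below the filter level, against a WT mean of 7.12. Lpcat3, a phospholipid-remodelling LXR target, fell by 1.42. Ch25h, which makes 25-hydroxycholesterol, rose by 3.03 above a WT mean of 4.80, also below the filter level. Lipa, lysosomal acid lipase, rose by 0.79 on an _s_at probe set and fell by 0.33 on an _at one.

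In whole hearts fewer cells of a type and less RNA per cell cannot be told apart. Of 4 adipocyte markers analysed 3 (Adipoq, Cidec and Lep) lay below the filter level, and Retn had a difference of 0.06 (adjusted p = 0.587). Their summed level, as log2 of summed signals, was 7.53 to 7.69 in KLF15-null and 7.55 to 7.59 in WT hearts. Of the brown adipocyte markers Cidea fell by 0.98, and Ucp1 and Elovl3 lay below the filter level (summed 7.64 to 8.31 in KLF15-null and 8.61 to 8.99 in WT hearts). Of 6 macrophage markers tested 3 were higher, Cd14, Lyz2 and Csf1r, and 0 lower, and Itgam was below the filter level. The summed level was 11.96 to 12.48 in KLF15-null hearts and 11.05 to 11.72 in WT hearts. Of 5 endothelial markers 2 were lower and 0 higher (10.08 to 10.69 in KLF15-null and 10.55 to 10.92 in WT hearts). Fibroblast markers had 1 of 5 higher, Pdgfra by 0.53, and 1 lower, Dcn by 1.25 (11.55 to 11.61 in KLF15-null and 11.90 to 12.65 in WT hearts). Smooth muscle markers had 0 of 4 higher and 1 lower, Myh11 by 1.44 (11.64 to 11.79 in KLF15-null and 11.04 to 11.65 in WT hearts). Such sums weigh the brightest markers most, and Acta2, the brightest of these 4, differed by 0.44 (adjusted p = 0.0569). The part of these cell types in the members' values was not tested.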

How the data were processed

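Per the labels' protocols, RNA of 7 whole hearts was converted by a one-cycle method to biotinylated target for Affymetrix arrays. The table deposited by the authors holds 1 value a probe set and array, judged from its range to be on a log2 scale. GCOS is named, without version or role, per the submitters' processing notes; how probes were summarized and arrays scaled is not stated there. In 35.6% of the kept probe sets at least 2 arrays held exactly the same value. Values were used as deposited, since array medians lay within 0.15 of each other.

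Of 22626 probe sets 20380 had 1 symbol, 691 several and 1555 none in the platform annotation; 20351 Entrez numbers were found in RefSeq (GRCm38.p6) and 0 symbols changed. Genotypes were tested in limma 3.58.1, under R 4.3.3 (linear model, no covariate, empirical Bayes with an intensity trend, two-sided, Benjamini-Hochberg over the 13576 kept probe sets). Each gene stood on its kept probe set with the highest WT mean. The procedure was tested on simulated data. Arrays with the same replicate number were not taken as pairs (correlations of deviations from the group means of -0.11, 0.00 and 0.19). Members with a result past the threshold, and the SREBP and LXR regulators, were given array by array, and of each further list the 4 genes with the smallest p. Promoters were those of up to 3 sterol members with the smallest p in each direction. The members, lists and rules were chosen with earlier results of these data known.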

Additional observations from a re-analysis of the deposited data

Results flagged for a closer look

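Of the 24 members tested, 6 had 1 WT array far from the other 3 by Dixon's criterion for 4 samples, which chance meets in about 1 of 20 groups. WT array 4 of Hmgcs1 was low at 8.21, WT array 3 of Mvk low at 7.30 and WT array 2 of Abca1 low at 9.003. WT array 2 of Sc5d was high at 6.18, WT array 3 of Elovl5 high at 8.98 and WT array 3 of Fads1 high at 7.54. For Abca1 and Fads1 the other 3 WT arrays held exactly the same value, as 730 kept probe sets did for at least 3 WT arrays.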

How the results depend on the processing

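Of 20 other settings, 19 planned, the number of members higher differed from 6 by more than 1.5 times in 2. It was 3 where _at probe sets were preferred and 3 without _x_at probe sets. Elovl1 has no kept _at probe set, so where _at probe sets were preferred it stayed on its _x_at one and was still higher. The number lower was 3 with a filter at the 60th percentile, which tests fewer genes, 4 after median centring, 5 after quantile normalization and 5 with a replicate block, against 8, and the causes of the other changes were not tested. With 1 array left out, 5 to 6 members were higher and 5 to 6 lower, 5 being lower without WT array 3 and without WT array 4. With the replicate block 5 were higher; only KLF15-null array 3 of the 3 correlated best with the WT array of its own number. Fdft1 turned to -0.40 with _at probe sets preferred and without _x_at ones, Elovl5 to -0.37 in both, and Elovl1 to -1.20 without _x_at ones. The Klf15 difference lay between -2.64 and -2.47 with 1 array left out and passed in each setting. Over members and other settings 401 values kept direction and side of the threshold, 46 lost a call, 10 gained one, 5 turned with a call before or after, and 9 of Msmo1, Scd2 and Fads1 changed sign without a call in either setting. Higher genes made up 54.4% of called genes on the deposited scale and 66.5% after median centring, where 7 members were higher and 4 lower. The members' median was -0.07 after quantile, -0.08 after cyclic loess and -0.03 after median scaling, against 0.02, -0.00 and 0.10 for all genes. With no filter 7 were higher and 7 lower. After median centring 5 of the 7 further sterol genes were higher, 1 of the 19 further lipogenic genes was lower and 5 of the 15 LXR target and cholesterol handling genes were lower.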

Other observations

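Dim probe sets of tested members, 12 in all, were outside the comparison. Among them a probe set of Scd2 had 4.08, 4.27 and 4.28 in KLF15-null hearts, against 4.52, 4.44, 4.65 and 4.56 in WT hearts (difference -0.33, adjusted p = 0.00531 with no filter), while the brighter probe set of Scd2 differed by -0.01. A second probe set of Sc5d had 4.35, 4.49 and 4.66 in KLF15-null hearts, against 4.76, 4.72, 4.72 and 4.88 in WT hearts, lower without overlap as its brighter probe set was on 2 of 3 KLF15-null arrays (adjusted p = 0.0262 with no filter). A second probe set of Lss had 5.35, 5.26 and 5.19 in KLF15-null hearts, against 5.06, 4.84, 5.16 and 5.16 in WT hearts, the opposite order to the brighter one (adjusted p = 0.110 with no filter). Idi1 and Sqle, both below the filter level, were higher with no filter, and Dhcr7 and Acaca lower; Mvk, Sc5d, Scd1 and Insig2 then missed the threshold (adjusted p = 0.0679, 0.0579, 0.0636 and 0.0597).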
